A study of Mus musculus with 24 samples.

Results

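The miRNA hairpins described here were Mir204 and Mir211 and the 5 hairpins that lie in introns of the serotonin receptor gene Htr2c, namely Mir764, Mir1912, Mir1264, Mir1298 and Mir448. They are 7 of the 1174 named hairpins of the mouse annotation, and they have 14 arms. They were chosen by name, with their SCI and SHAM counts already known, in particular the counts of miR-1298-5p at P90 3 days and the way these hairpins moved together between libraries. Their values in SCI against SHAM are therefore given as a description. Small RNA was sequenced from the sensorimotor cortex of wild type C57BL/6J male mice in 24 libraries. Mice aged P15 or P90 had the cervical spinal cord fully transected (SCI) or exposed without damage. The latter are the controls, labelled wt in the library titles and here called SHAM as in the study. The cortex was taken 12 h or 3 days later, which gives 4 comparisons, P90 3 days, P90 12 h, P15 3 days and P15 12 h, with 3 SCI and 3 SHAM libraries each. Tissue was collected mouse by mouse, and the study's methods state that layer V was dissected, with neighbouring layers excluded as far as possible. The replicate is not described further, so spreads and p-values refer to the variation between these libraries.

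The choroid plexus is the folded epithelium that hangs in the brain ventricles and secretes cerebrospinal fluid. Its cells express very high levels of Ttr, the carrier of thyroid hormone and retinol-binding protein, and of Htr2c, and miR-204 is abundant in them and in the retinal pigment epithelium. A miRNA that lies in an intron is often made from the transcript of its host gene, so that levels of intronic miRNAs can follow those of the host. Htr2c is also transcribed in some neurons of the cortex and other regions. In bulk tissue, fewer cells of a type and less RNA per cell cannot be told apart.

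All positions are on GRCm38, and every hairpin lies on the plus strand, as does its host gene. Htr2c spans chrX:146962513-147197277. In its model with 7 exons, intron 3 holds Mir764 (chrX:147002259-147002366), Mir1912 (chrX:147009441-147009527), Mir1264 (chrX:147010601-147010686) and Mir1298 (chrX:147064905-147065002), and intron 5 holds Mir448 (chrX:147158210-147158321). Mir1912 and Mir1264 are separated by 1073 bases, whereas 54218 bases separate Mir1264 from Mir1298, and 93207 bases separate Mir1298 from Mir448. Mir204 (chr19:22750605-22750672) lies in intron 6 of the longest coding model of Trpm3, and Mir211 (chr7:64205806-64205911) in intron 6 of that of Trpm1. Both hosts encode ion channels of the TRP melastatin family. None of the 7 hairpins overlapped an exon of a coding transcript of its host.

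The mature sequences below are shown because the arms are told apart by their letters and because the seed, bases 2 to 8, sets which target sites a miRNA can pair with. They are RefSeq entries on GRCm38.p6 written 5′ to 3′ with the seed in capitals, and 12 of the 14 arms had an entry.
miR-204-5p: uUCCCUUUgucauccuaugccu
miR-211-5p: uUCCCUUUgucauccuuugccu
miR-1298-5p: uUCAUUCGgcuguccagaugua
miR-1298-3p: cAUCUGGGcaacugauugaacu
miR-448-5p: gAACAUCCugcauagugcugcc
miR-448-3p: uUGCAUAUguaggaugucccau
miR-1264-3p: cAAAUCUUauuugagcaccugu
miR-1912-3p: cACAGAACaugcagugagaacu
miR-764-5p: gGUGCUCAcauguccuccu
miR-764-3p: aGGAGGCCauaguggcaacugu
miR-204-5p and miR-211-5p had the same seed and differed at 1 base, A17U (the base of miR-204-5p, its position from the 5′ end, then the base of miR-211-5p). The other 10 entries had seeds that no other member had, so that the Htr2c-intron miRNAs were not a seed family.

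The deposited reads of the members started at a fixed base. Reads with the most frequent start made up 98.1% of miR-1298-5p, 98.9% of miR-204-5p and 96.7% of miR-448-3p, and the lowest share among arms with over 100 reads was 78.9%, in miR-1912-3p. For 10 of the 12 arms with a RefSeq entry, miR-211-3p with 4 reads among them, the most frequent read started at the RefSeq start and ended within 2 bases of its end. In miR-764-5p it ran 3 bases past the 19 bases of the entry. In miR-764-3p it started 1 base earlier than the entry and had a shifted seed, and this form held 49.0% of the arm's reads. The most frequent reads of that arm and of both arms without an entry were as follows, with bases 2 to 8 in capitals and T for U as deposited.
miR-764-3p, deposited: gAGGAGGCcatagtggcaactgt
miR-1264-5p, deposited: aGGTCCTCaataagtatttgtt
miR-1912-5p, deposited: tGCTCATTgcatgggctgtgta
No read of the members matched a second named hairpin, so no read was counted for another hairpin as well. A read of miR-204-5p misread as T at base 17 would be counted as miR-211-5p. That arm had 729 reads, against 437726 of miR-204-5p, and the part of such misreads in it was not tested.

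The libraries held 8369595 to 44026755 reads, of which 56.5% to 77.7% matched a miRNA hairpin. Levels are given as counts per 1000000 miRNA reads (CPM), where 3 reads, the limit that a count of 0 allows, corresponded to 0.0989 to 0.635 CPM. These limits cover counting error only. SHAM 1 and SHAM 2 of P15 3 days stood apart: 33.8% and 35.6% of their distinct reads were seen once, against 72.2% to 86.4% in the other 22 libraries, and 58.6% and 56.5% of their reads were miRNA, against at least 68.7%. Values of P15 3 days are therefore also given without them. All 12 genes of a list of cortical neuron mRNAs had reads, at 36.6 to 580 reads per 1000000 deposited reads (RPM), and neuronal miRNAs summed to 76280.4 to 128181 CPM, whereas a list of 5 ependymal genes had 69 reads in all 24 libraries.

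The 7 hairpins had 505617 reads, of which 87.2% came from Mir204 and 9.58% from Mir1298. miR-204-5p was the most abundant arm, with a median of 1117 CPM and a range of 542 to 3402 CPM over the 24 libraries. miR-1298-5p followed at a median of 38.2 CPM and ranged from 12.0 to 371 CPM, so that its highest library was 30.8-fold above its lowest. The ranges of these arms did not overlap. miR-1298-3p had a median of 11.7 CPM and lay below miR-1298-5p in 23 of 24 libraries. The next arms, miR-1264-5p, miR-204-3p, miR-448-3p and miR-448-5p, had medians of 7.94, 7.66, 6.43 and 5.04 CPM. Neighbours among them changed order between libraries, as miR-1264-5p was above miR-204-3p in 13 of 24. miR-1264-3p, miR-764-5p, miR-764-3p and miR-211-5p had medians of 3.73, 2.60, 1.93 and 1.64 CPM, and miR-764-3p exceeded miR-211-5p in 12 of 24 libraries.

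The rarest arms were miR-1912-3p with 403 reads, miR-1912-5p with 101 reads and miR-211-3p with 4 reads over all libraries. miR-211-3p had no read in 20 libraries and is not described further. miR-1912-5p passed the minimum mean normalised count of 5 in P15 3 days alone. The other 12 arms passed it in all 4 comparisons.

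Replicates of 1 group differed widely in several Htr2c-intron arms. Of 856 arms tested over all libraries, miR-1912-3p had the second highest and miR-1298-5p the third highest SD of log2 CPM within groups, ranks 2 and 3, at 1.41 and 1.31. The median SD of all 856 arms was 0.38. miR-448-3p, at 1.13, had rank 17, whereas miR-204-5p, at 0.52, had rank 291 and miR-211-5p, at 0.44, rank 365. These ranks are a description, since the co-variation of the members was known when they were chosen.

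**Figure D1:**
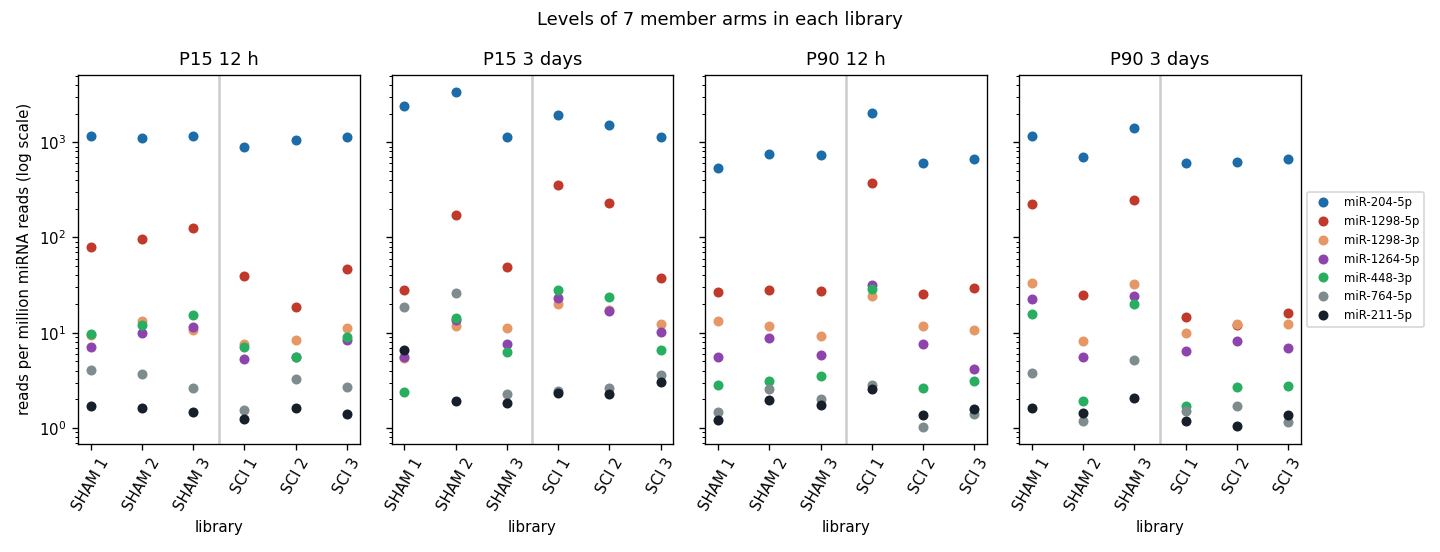
CPM (log axis) of 7 member arms in each of the 24 libraries, SHAM left and SCI right of the grey line in each comparison. miR-1298-5p lay at 355 CPM in SCI 1 of P15 3 days, 371 CPM in SCI 1 of P90 12 h and 227 and 245 CPM in SHAM 1 and SHAM 3 of P90 3 days, and miR-1264-5p and miR-448-3p were high in the same libraries.

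At P15 12 h the members were lower in SCI than in SHAM, by little for Mir204 and by more for several Htr2c-intron arms. miR-1298-5p was at 80.1, 95.3 and 126 CPM in SHAM and at 39.0, 18.7 and 46.9 CPM in SCI, a log2 fold change of −1.46 ± 0.29 (SE). All 3 SCI libraries lay below all SHAM libraries. miR-448-3p was at 9.68, 12.2 and 15.3 CPM in SHAM and at 7.02, 5.55 and 9.05 CPM in SCI (log2 fold change −0.71 ± 0.26), again without overlap. miR-1912-3p had 10, 12 and 9 reads in SHAM and 2, 1 and 3 reads in SCI. miR-204-5p hardly differed, with 1154, 1107 and 1157 CPM in SHAM and 895, 1067 and 1134 CPM in SCI (−0.10 ± 0.15), and these groups overlapped. Of the Htr2c-intron arms, miR-1298-3p (−0.24 ± 0.24) and miR-1264-3p (−0.34 ± 0.34) also differed little and overlapped. The log2 fold changes of all 12 arms tested were negative, with a median of −0.49 against −0.01 over all arms tested. The groups did not overlap in 5 of the 12, against 9.73% of the 843 arms tested. No member was called at a Benjamini-Hochberg adjusted p of edgeR under 0.05 with a log2 fold change past 1, and 0.119% of all arms were. Since the members were chosen with this contrast known, nothing is read from these counts, here or in the other comparisons.

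Ttr had 5, 16 and 15 reads in SHAM and 2, 2 and 1 reads in SCI of P15 12 h. The whole list of 18 choroid plexus genes summed to 6.71 to 16.6 RPM in SHAM and to 5.76 to 7.23 in SCI, with overlap. The part of either in the difference between SCI and SHAM was not tested.

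At P15 3 days the arms of Mir1298, Mir1264 and Mir1912 and miR-448-3p were highest in SCI 1 and SCI 2, whereas both arms of Mir204 and miR-764-5p were highest in SHAM 1 and SHAM 2. miR-1298-5p was at 28.1, 172 and 48.8 CPM in SHAM and at 355, 230 and 37.3 CPM in SCI, and SCI 3 lay below 2 of the SHAM libraries. Its log2 fold change was 1.62 ± 0.80, and 2.06 ± 1.04 without SHAM 1 and SHAM 2. miR-448-3p was likewise highest in SCI 1 and SCI 2, with 2.39, 14.4 and 6.35 CPM in SHAM and 28.3, 23.7 and 6.51 CPM in SCI (1.60 ± 0.66). miR-1264-5p was at 5.55, 13.8 and 7.55 CPM in SHAM and at 22.9, 16.9 and 10.1 CPM in SCI (1.14 ± 0.42). miR-1912-3p had 3, 6 and 9 reads in SHAM and 107, 71 and 13 reads in SCI, and miR-1912-5p had 0, 3 and 0 reads in SHAM and 29, 21 and 1 reads in SCI.

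The pattern of miR-764-5p was a different one although its hairpin lies in the same intron as Mir1298. miR-764-5p was at 18.6, 26.0 and 2.30 CPM in SHAM and at 2.47, 2.65 and 3.56 CPM in SCI of P15 3 days. The log2 fold change was −2.09 ± 0.65 with all libraries and 0.30 ± 0.30 without SHAM 1 and SHAM 2, so its direction rested on these libraries. miR-204-3p behaved in the same way, with 16.9, 30.9 and 6.02 CPM in SHAM and 8.11, 7.40 and 4.24 CPM in SCI, and its log2 fold change went from −1.12 ± 0.49 to 0.10 ± 0.35. miR-204-5p was at 2416, 3402 and 1141 CPM in SHAM and at 1912, 1528 and 1127 CPM in SCI, with −0.33 ± 0.34 and then 0.39 ± 0.25. miR-211-5p was at 6.52 CPM in SHAM 1 and at 1.82 to 3.07 CPM in the other 5 libraries. The other arm of Mir764, miR-764-3p, did not share the pattern of miR-764-5p. It was at 2.94, 1.27 and 2.04 CPM in SHAM and at 1.95, 1.84 and 1.70 CPM in SCI (−0.05 ± 0.44), with SHAM 2 lowest.

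In P15 3 days 8 of the 13 arms tested had a positive log2 fold change, and the median was 0.98 against 0.01 over all arms. The groups of 2 arms, miR-1298-3p and miR-448-5p, did not overlap, against 24.3% of the 999 arms tested. No arm was called, member or not (0.0%), where 229 arms had an unadjusted p under 0.05 and DESeq2 called 119. Ttr had 16, 62 and 10 reads in SHAM and 142, 41 and 3 reads in SCI, the highest counts of all comparisons. The choroid plexus list summed to 14.4 to 19.7 RPM in SHAM and to 9.81 to 17.7 in SCI, and its part in the values of the members was not tested.

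At P90 12 h the higher mean in SCI came from SCI 1. In that library miR-1298-5p was at 371 CPM, 13.5-fold above the median of the other 5 libraries, which lay between 25.3 and 29.3 CPM. miR-448-3p was at 28.7 CPM there, 9.15-fold above the median of the others, and miR-1264-3p at 20.3 CPM, 9.33-fold above. miR-1912-3p had 49 reads in SCI 1 and 2 to 6 reads in each of the others. miR-204-5p was at 2043 CPM, 3.08-fold above the median of the others, which lay between 542 and 752 CPM. Of the 12 arms tested, 11 were highest in SCI 1, miR-764-3p being the exception.

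The log2 fold change of miR-1298-5p at P90 12 h was 2.32 ± 0.93 with all 6 libraries and 0.00 without SCI 1. That of miR-448-3p went from 1.83 ± 0.82 to −0.11, that of miR-1264-3p from 1.53 ± 0.82 to −0.43 and that of miR-204-5p from 0.67 ± 0.42 to −0.07. SCI and SHAM overlapped in all 12 arms, where 15.5% of the 775 arms tested did not overlap. No member was called, against 0.258% of all arms. The median log2 fold change of the members was 0.54, against −0.05 over all arms. Ttr had 6 reads in SCI 1, where cortical neuron mRNAs had 637 reads, or 9.42 Ttr reads per 1000 neuron reads. The other 5 libraries had 1 to 9 Ttr reads, or 0.796 to 6.95 per 1000. Per total deposited reads, Ttr was at 0.367 RPM in SCI 1, below SHAM 3 at 0.426 RPM, so SCI 1 was highest only relative to neuron reads. The choroid plexus list summed to 1.63 to 3.94 RPM in SHAM and to 1.83 to 3.07 in SCI.

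At P90 3 days most members were high in SHAM 1 and SHAM 3 and low in SHAM 2 and in all 3 SCI libraries. miR-1298-5p was at 227, 24.9 and 245 CPM in SHAM and at 14.7, 12.0 and 16.1 CPM in SCI, a log2 fold change of −3.48 ± 0.65. Every SCI library lay below every SHAM library, SHAM 2 by the smallest margin. miR-448-5p was at 12.3, 4.89 and 15.7 CPM in SHAM and at 3.27, 2.77 and 2.99 CPM in SCI (−1.82 ± 0.35), also without overlap. The other arm of that hairpin, miR-448-3p, was at 15.7, 1.91 and 20.0 CPM in SHAM and at 1.70, 2.67 and 2.76 CPM in SCI, and here SHAM 2 lay within the SCI range. miR-1912-3p had 50, 0 and 41 reads in SHAM and 0, 2 and 1 reads in SCI.

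The same libraries were high in miR-204-5p and both Mir764 arms. miR-204-5p was at 1159, 707 and 1414 CPM in SHAM and at 607, 624 and 664 CPM in SCI (−0.74 ± 0.18), without overlap. miR-764-3p was at 6.31, 2.03 and 6.06 CPM in SHAM and at 1.18, 2.38 and 2.53 CPM in SCI (−1.29 ± 0.41). miR-764-5p was at 3.75, 1.19 and 5.22 CPM in SHAM and at 1.15 to 1.72 CPM in SCI, where SHAM 2 lay within the SCI range. miR-204-3p, in contrast, overlapped, with 7.90, 8.94 and 14.8 CPM in SHAM and 8.70, 5.34 and 9.19 CPM in SCI. miR-211-5p was at 1.63, 1.43 and 2.04 CPM in SHAM and at 1.18, 1.05 and 1.38 CPM in SCI (−0.48 ± 0.26).

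All 12 arms tested at P90 3 days had a negative log2 fold change, with a median of −1.28 against −0.03 over all arms. miR-1298-5p and miR-448-5p were called, against 1.43% of the 770 arms tested, and 5 arms did not overlap, against 22.1%. Both calls were lost when SHAM 1, SHAM 3 or any SCI library was left out, and 9 members were called when SHAM 2 was left out. Without it the log2 fold change of miR-1298-5p was −3.98, and in the other leave-outs it lay between −3.12 and −3.55. Ttr had 19, 2 and 10 reads in SHAM and 0 reads in each SCI library, where a count of 0 allows up to 3. The choroid plexus list summed to 3.48 to 4.51 RPM in SHAM and to 2.12 to 2.58 in SCI, without overlap, and its part in the difference was not tested.

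**Figure D2:**
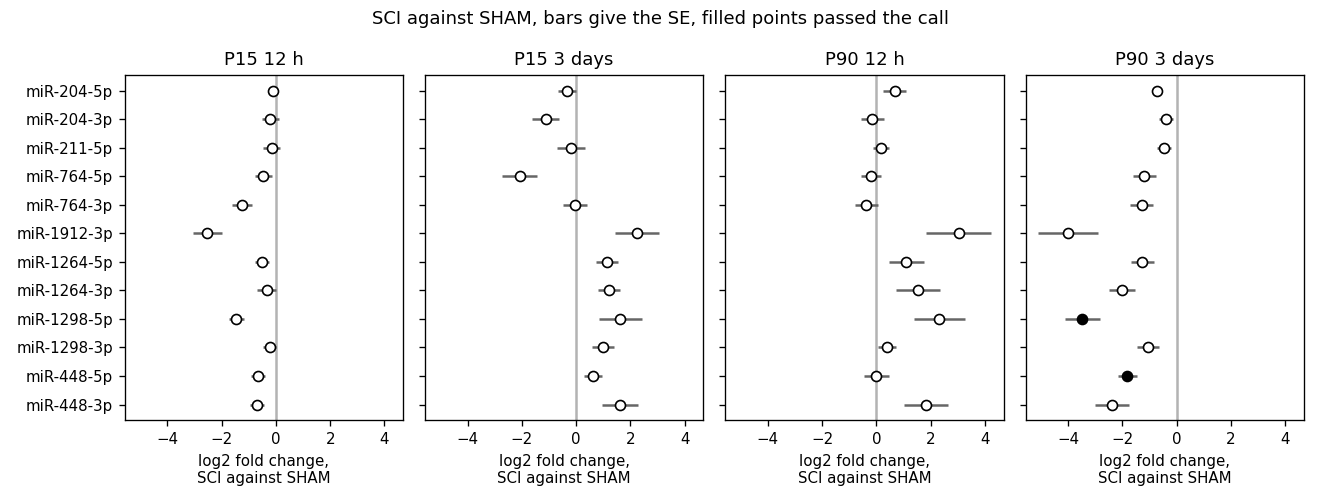
Log2 fold change of SCI against SHAM for the 12 arms that passed in all comparisons, with the SE as bars, in edgeR's fit of 6 libraries per comparison, where filled points mark the calls. miR-1298-5p went from −1.46 at P15 12 h through 1.62 and 2.32 to −3.48 at P90 3 days.

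The sign of the SCI values thus differed between the comparisons for the same arm. miR-1298-5p, miR-448-3p, miR-1264-5p, miR-1264-3p and miR-1912-3p had negative values at P15 12 h and P90 3 days and positive values at P15 3 days and P90 12 h, as the plot of fold changes shows. Each comparison had its own SHAM libraries.

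The Htr2c-intron arms, apart from Mir764, moved together between libraries. For the deviations of log2 CPM from the mean of each comparison over 24 libraries, Pearson's r between miR-1298-5p and miR-448-3p was 0.962, and that between miR-1264-5p and miR-448-3p was 0.949. Among miR-1264-5p, miR-1264-3p, miR-1298-5p, miR-1298-3p, miR-1912-3p and miR-448-3p, r lay between 0.837 and 0.962. miR-448-5p was at 0.714 to 0.834 with these arms. miR-204-5p, from another chromosome, was at 0.469 to 0.738 with them and at 0.757 with miR-764-5p. These pooled values covered unlike comparisons. Its r with miR-1298-5p was 0.486 at P15 12 h, 0.299 at P15 3 days, 0.973 at P90 12 h and 0.984 at P90 3 days. With miR-1298-3p it was 0.679, −0.266, 0.848 and 0.924 in the same order. miR-204-3p and miR-211-5p had the lowest values with miR-1298-3p, −0.0062 and 0.0082. With miR-1298-5p they were at 0.321 and 0.169. miR-764-5p was at 0.282 with miR-1298-5p and at 0.367 with its own 3p arm. The points share libraries and the total of miRNA reads, and the values are a description.

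**Figure D3:**
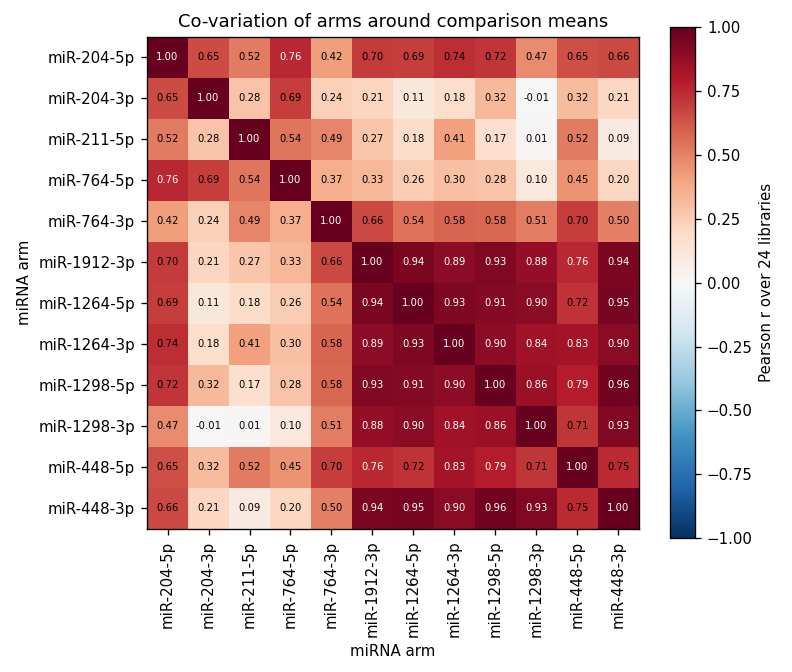
Pearson's r between 12 member arms over 24 libraries, for log2 CPM (0.1 CPM added) as deviations from the mean of each comparison, with colour from −1 (blue) to 1 (red). Arms of Mir1912, Mir1264, Mir1298 and miR-448-3p form a block at 0.837 to 0.962, whereas miR-204-3p, miR-211-5p and miR-764-5p lie lower with that block.

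The arms of a hairpin did not keep 1 ratio. Mir1298 gave 17.6 reads of its 5p arm per read of its 3p arm in SCI 1 of P15 3 days and 0.984 in SCI 2 of P90 3 days, with a median of 4.25. In SCI 1 of P90 12 h the ratio was 15.2, against 2.03 to 2.95 in the other 5 libraries of that comparison. At P90 3 days it was 6.80, 3.03 and 7.57 in SHAM and 1.47, 0.984 and 1.31 in SCI. So the 5p arm varied more than the 3p arm, which ranged from 5.44 to 33.4 CPM.

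Mir448 showed the reverse. The ratio of its 5p to its 3p arm was lowest, at 0.240, 0.264 and 0.267, in SCI 2 of P15 3 days, SCI 1 of P90 12 h and SCI 1 of P15 3 days, libraries in which miR-448-3p was high, and it reached 2.56 in SHAM 2 of P90 3 days. Mir1264 stayed between 1.13 and 6.14, with a median of 2.37. Mir764 had a median of 1.31 and reached 20.5 in SHAM 2 of P15 3 days. Mir204 gave 69.1 to 277 reads of its 5p arm per 3p read.

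**Figure D4:**
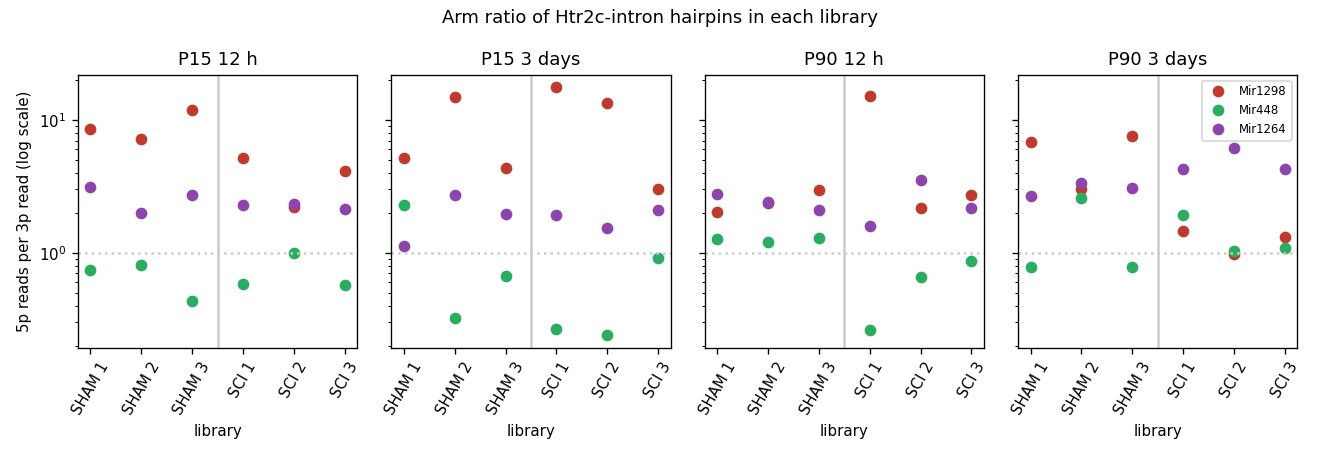
Reads of the 5p arm per read of the 3p arm (log axis) of Mir1298, Mir448 and Mir1264 in each library, with SHAM left and SCI right of the grey line and the dotted line at equal arms. In SCI 1 of P90 12 h Mir1298 was at 15.2 and Mir448 at 0.264.

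Whether the members followed choroid plexus mRNA was asked with reads that the choice of members did not use. The lists themselves were chosen with earlier results of these data known. The reads of the 18 choroid plexus genes were divided by those of the 12 cortical neuron genes, and the log2 ratio was compared with the log2 summed CPM of the members, both as deviations from the comparison means. Permutations within a comparison mixed SCI and SHAM libraries. A difference between SCI and SHAM that both measures share is therefore part of r and of p, and its share was not tested. Over 24 libraries Pearson's r was 0.297 (permutation test within comparisons, two-sided p = 0.206, adjusted 0.516) and Spearman's rho was 0.257 (permutation p = 0.276, adjusted 0.691). Values were adjusted over 5 relations, the pooled relation and the 4 comparisons. Without the 2 libraries farthest from the median, r was 0.335. Within comparisons r was 0.016 at P15 12 h, 0.026 at P15 3 days, 0.067 at P90 12 h and 0.763 at P90 3 days, with exact permutation p-values of 0.983, 0.956, 0.787 and 0.0917, adjusted 0.983, 0.983, 0.983 and 0.458. Spearman's rho was 0.371, 0.029, −0.086 and 0.943 in the same order, with exact permutation p-values of 0.497, 1.0, 0.919 and 0.0167, adjusted 0.829, 1.0, 1.0 and 0.0833. No relation of the summed members with the whole list passed after adjustment.

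Most reads of the list came from a pair of its genes. Enpp2, which encodes autotaxin and is also made by oligodendrocytes, and Tmem72 held 82.5% of the 4380 reads. Ttr held 8.47% and Htr2c 5.48%, and the other 14 genes had 157 reads together. For Ttr alone, used as an alternative to the list, r was 0.758 (permutation test within comparisons, two-sided p = 2e-05, adjusted 0.0001) and rho was 0.817 (permutation p = 2e-05, adjusted 0.0001). This adjustment covers the 5 relations of Ttr, not the test of the list or the other alternatives. Among the alternatives to the list over 24 libraries, Ttr alone had the highest r and Htr2c alone the lowest, −0.520. Without the 2 libraries farthest from the median, r was 0.696, and leaving out any library gave 0.716 to 0.820. Without SHAM 1 and SHAM 2 of P15 3 days it was 0.726. As 87.2% of the members' reads came from Mir204, the summed level mainly follows that hairpin. Ttr was not compared with the Htr2c-intron hairpins alone, so these values do not show whether they followed Ttr.

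Within comparisons, r between the members and Ttr was 0.562 at P15 12 h, 0.911 at P15 3 days, 0.725 at P90 12 h and 0.852 at P90 3 days. The exact permutation p-values were 0.247, 0.0208, 0.0722 and 0.00417, adjusted 0.247, 0.0347, 0.0903 and 0.0104. Spearman's rho was 0.657, 0.829, 0.600 and 0.943, with exact permutation p-values of 0.175, 0.0583, 0.242 and 0.0167, adjusted 0.219, 0.0972, 0.242 and 0.0417. At P15 12 h and P90 12 h the relation with Ttr was thus positive but did not pass within the comparison alone. Ttr had 371 reads in 21 of the 24 libraries, so that its level in each library rests on few reads. At P90 3 days it had 0 reads in SCI 1, SCI 2 and SCI 3. Their order in the Ttr ratio therefore came only from their neuron reads, which were 1643, 843 and 782. The members, at 658, 674 and 721 CPM, happened to have the same order. How far r, rho and their p-values at P90 3 days rest on this order was not tested.

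The Htr2c-intron hairpins alone, summed, had r = 0.509 with the whole list (permutation p = 0.0328), Mir1298 alone 0.544 (permutation p = 0.0210) and Mir204 alone 0.240 (permutation p = 0.297). The difference between these values was not tested. With Enpp2 and Tmem72 left out of the list, a choice made after their share was seen, r for all members was 0.608 (permutation p = 0.00414). With Ttr and Htr2c left out instead, it was 0.0912 (permutation p = 0.708). For Ttr alone with both measures per total deposited reads, also chosen after the data were seen, r was 0.688 (permutation p = 0.00015).

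Reads of Htr2c, the host gene of the intronic hairpins, did not rise with the members over the 24 libraries, although P15 3 days went partly the other way. At P90 12 h Htr2c had 5, 8 and 4 reads in SHAM and 0, 1 and 4 reads in SCI, so that SCI 1, where miR-1298-5p was highest, had none. At P90 3 days it had 5, 4 and 3 reads in SHAM and 6, 7 and 0 reads in SCI. P15 12 h had 3, 4 and 10 reads in SHAM and 8, 2 and 7 in SCI. P15 3 days had the most, 13, 4 and 27 reads in SHAM and 47, 24 and 44 in SCI. Per total deposited reads these were 0.828, 0.478 and 0.698 RPM in SHAM and 1.07, 0.632 and 1.18 RPM in SCI. There miR-1298-5p was at 355 CPM in SCI 1 and at 37.3 CPM in SCI 3. For Htr2c alone, a choice made after the data were seen, r with all members was −0.520 (unadjusted permutation p = 0.0299) and r with the Htr2c-intron hairpins was −0.394 (permutation p = 0.114). Htr2c had 240 reads in 22 of the 24 libraries, and neurons also express this receptor.

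**Figure D5:**
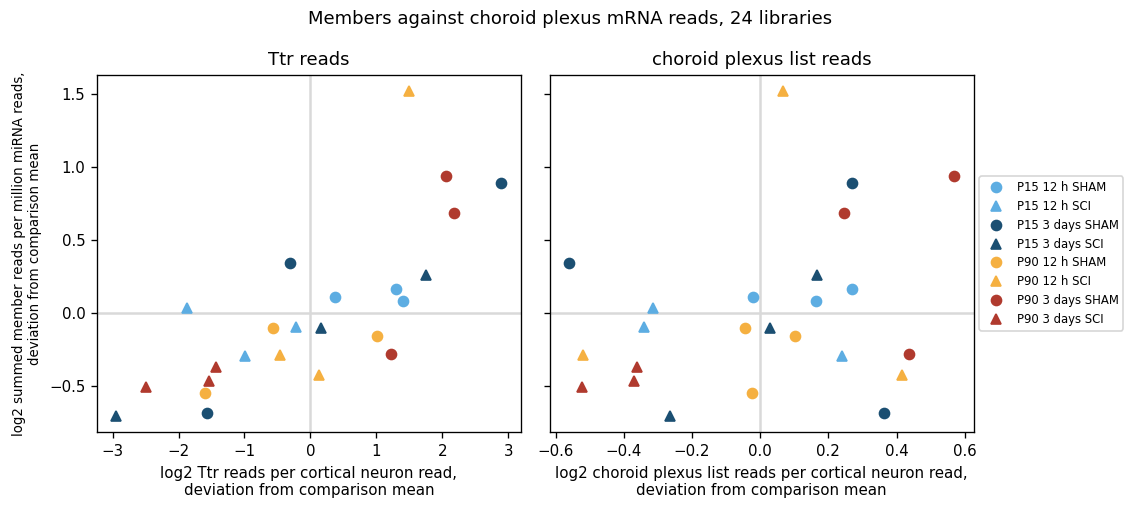
Log2 summed CPM of the members (vertical) against log2 Ttr reads (left) or choroid plexus list reads (right) per cortical neuron read, each as the deviation from the mean of its comparison, with circles for SHAM, triangles for SCI and a colour for each comparison. The points rise together in the left panel (r = 0.758) and less so in the right panel (r = 0.297).

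Outside the members, the arms most like them were the 3p arms of the Mir34b and Mir34c hairpins, which are characteristic of cells with motile cilia. Of 441 arms with a mean of at least 10 CPM, miR-34b-3p had the highest r with the log2 summed level of the members over 24 libraries, 0.869, followed by miR-34c-3p at 0.846, miR-3059-5p at 0.742, miR-770-5p at 0.724 and miR-339-3p at 0.717. Since 87.2% of the members' reads came from Mir204, this sum mainly follows that hairpin. With miR-1298-5p the same 5 arms had r of 0.747, 0.662, 0.389, 0.295 and 0.434, in that order. miR-34b-3p was at 85.5 CPM in SCI 1 of P90 12 h and at 23.2 to 35.6 CPM in the other 5 libraries of that comparison. At P90 3 days it was at 52.6, 31.5 and 57.0 CPM in SHAM and at 27.2, 23.7 and 39.3 CPM in SCI. At P15 3 days it was highest in SCI 1, at 54.0 CPM. At P15 12 h, in contrast, its highest library was SCI 3, at 37.0 CPM, where the highest of miR-1298-5p was SHAM 3.

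Of the list of ciliated cell miRNAs, which also holds the Mir449 hairpins, 5 arms were tested at P90 12 h and 6 in each of the other comparisons, and none was called. The median log2 fold change was 0.05 at P15 12 h, 0.54 at P15 3 days, 0.76 at P90 12 h and −0.51 at P90 3 days. Its summed level was highest, at 897 CPM, in SCI 1 of P90 12 h, and its median over the libraries was 288 CPM. miR-449a-5p did not share the pattern, with 7.67 CPM in that library and 5.70 to 11.9 CPM in the other 5. Among ependymal mRNAs there were too few reads for values per library.

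Age was compared in the SHAM libraries, a contrast that the choice of members did not use, with 6 libraries at P90 and 6 at P15. The time point was a covariate. Fold changes are of TMM-scaled counts, whereas CPM are not TMM-scaled, so the fold changes differ from the ratio of the CPM means. miR-1298-3p was higher at P90, with a mean of 18.1 CPM against 10.2 CPM at P15 and a log2 fold change of 1.33 ± 0.37 (SE, edgeR quasi-likelihood test, adjusted p = 0.00927). miR-764-3p was also higher, at 3.43 against 2.11 CPM (1.18 ± 0.36, edgeR adjusted p = 0.0147). Both passed in all 18 alternative fits, with log2 fold changes of 0.95 to 1.49 for miR-1298-3p and 0.94 to 1.36 for miR-764-3p. None of these fits scaled by total deposited reads. At 12 h the SHAM means were 11.4 CPM at P90 and 11.05 CPM at P15 for miR-1298-3p, and 2.06 and 2.13 CPM for miR-764-3p. At 3 days they were 24.7 and 9.44 CPM, and 4.80 and 2.08 CPM. The P90 means of both arms were raised by SHAM 1 and SHAM 3 of P90 3 days, and no fit left out both libraries. miR-1298-3p was at 33.4 and 32.4 CPM there, against 8.22 to 13.2 CPM in the other P90 SHAM libraries and 5.44 to 13.1 CPM at P15. miR-764-3p was at 6.31 and 6.06 CPM, against 1.37 to 2.88 CPM and 1.27 to 2.94 CPM. How far the age difference rests on them was not tested.

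The other 10 arms did not pass in the age comparison. miR-1298-5p was at 96.6 CPM at P90 and 91.7 CPM at P15 (0.23 ± 0.67, edgeR adjusted p = 0.791), a difference much smaller than the spread of this arm. miR-204-5p was at 885 and 1729 CPM (−0.27 ± 0.20, edgeR adjusted p = 0.275), with the P15 mean raised by SHAM 1 and SHAM 2 of P15 3 days. miR-1264-5p was at 12.2 and 9.19 CPM (0.88 ± 0.39, edgeR adjusted p = 0.0749). Over all arms 47.8% of the 869 tested passed, 191 higher and 224 lower at P90, so that the 16.7% of the members that passed was a smaller share.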

How the data were processed

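Small RNA libraries were made with adapters carrying 4 degenerate nucleotides at their ligating ends. The authors removed reads with unassigned bases, trimmed adapter and degenerate bases, and deposited counts of the distinct reads of every library, without normalization. Mapping was a later step of the study and is not part of these counts. Here, reads of at least 18 nt that matched a named GENCODE M21 hairpin (GRCm38) wholly, sense and without mismatch were summed per arm, each hairpin being divided at its apical loop (RNAfold 2.7.2), and arms of the same sequence were merged. Reads matching marker mRNAs and no other gene were summed per list. The members and lists were chosen with earlier results of these data known.

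Counts were fitted with edgeR 4.0.16 under R 4.3.3 (TMM, quasi-likelihood F-test) over arms with a mean normalised count of at least 5. An arm was called when its log2 fold change was past 1 in size and its p, adjusted after Benjamini-Hochberg, was under 0.05. Each SE was taken from the fold change and F. Correlations used 100000 permutations within comparisons or all 720 orders of 6 libraries, with 0.5 reads added to both mRNA sums. In simulated counts the edgeR step was tested on known changes. Alternatives included DESeq2 1.42.0, other scalings, no filter, the most abundant sequence of an arm alone, the replicate number as a block, and each library left out. All 14 arms are named, besides the 5 arms most like the members and the marker lists. No pair of libraries of a group agreed within sampling noise (chi-square per degree of freedom at least 37.3). Depth ranged from 8369595 to 44026755 reads, so that arms with a few reads have no precise fold change. Python 3.11.15, numpy 2.4.6 and matplotlib 3.10.9 were used.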

Additional observations from a re-analysis of the deposited data

Results flagged for a closer look

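The effect of SCI at 3 days differed between P90 and P15 in 6 of the 12 arms tested, by the interaction contrast of edgeR's fit of all 24 libraries, against 6.54% of the 856 arms tested. The members were chosen with these libraries known, so the differences are not independent evidence. Each value is the log2 fold change at P90 minus that at P15. It was −5.18 for miR-1298-5p (edgeR adjusted p = 0.0208), −6.32 for miR-1912-3p (edgeR adjusted p = 0.0265), −4.06 for miR-448-3p (edgeR adjusted p = 0.0330), −2.49 for miR-448-5p (edgeR adjusted p = 0.00943), −3.29 for miR-1264-3p (edgeR adjusted p = 0.0384) and −2.11 for miR-1298-3p (edgeR adjusted p = 0.0330). When each of the 12 libraries of 3 days was left out in turn, a choice made after the data were seen, the sign held in all of these fits. miR-448-5p passed in all 12, whereas miR-1298-5p failed in 7, with values between −6.02 and −4.56, miR-1912-3p in 7, miR-448-3p in 8, and miR-1264-3p and miR-1298-3p in 9. Leaving out SHAM 1 or SCI 1 of P15 3 days, or SHAM 1, SHAM 3, SCI 1 or SCI 3 of P90 3 days, each ended the call of every arm but miR-448-5p. Without SHAM 1 and SHAM 2 of P15 3 days none of the 6 passed, with adjusted p-values from 0.610 to 0.773, although miR-1298-5p was at −5.52. At 12 h no member passed in P90 minus P15, nor in 3 days minus 12 h at either age.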

How the results depend on the processing

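Of 645 alternative values of the members' log2 fold changes, 631 moved by less than the SD between replicates, 14 moved by more, and neither called value changed sign. With DESeq2, members called were 1 at P15 12 h (of 3 arms), 1 at P15 3 days (of 119) and 3 at P90 3 days (of 19). With no filter on low counts they were 9 of 45 at P90 3 days, 3 of 6 at P90 12 h, 1 of 90 at P15 3 days and 2 of 6 at P15 12 h. With the most abundant sequence alone, 4 members of 19 arms were called at P90 3 days. With all 24 libraries in 1 fit, the arms called were 0 at P15 12 h, 153 at P15 3 days (1 member) and 0 at P90 12 h, and at P90 3 days 1 member was called. Without SHAM 1 and SHAM 2 of P15 3 days, which leaves a lone SHAM library assumed to vary like the others, 5 arms were called there. The cause of these changes was not tested.

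The labels give SCI and SHAM the same replicate numbers, but same-numbered libraries did not deviate together (r from −0.388 to 0.251, over 0.1 in 4 of 12 pairs), so they share only a number. Of the 6 libraries, 4, 4, 0 and 2 correlated best with their own number in the 4 comparisons. With the replicate number as a block, 92 arms were called at P15 3 days, 2 members among them, and 17 at P90 3 days, 3 members among them. The block gave 1 and 2 arms at P15 12 h and P90 12 h, as without it.

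With each library left out in turn, arms called ranged from 0 to 5 at P15 12 h, 0 to 350 at P15 3 days, 1 to 2 at P90 12 h and 3 to 37 at P90 3 days. Members called ranged from 0 to 2, from 0 to 5, from 0 to 0 and from 0 to 9. The highest counts were those without SHAM 1 at P15 12 h, without SHAM 3 at P15 3 days and without SHAM 2 at P90 3 days. The members that passed between ages in SHAM ranged from 2 to 3. The correlation of the members with the choroid plexus list (0.297) rose to 0.758 for Ttr alone, 0.544 for Mir1298 alone, 0.509 for the Htr2c-intron hairpins alone and 0.608 without Enpp2 and Tmem72. It was 0.688 for Ttr per total deposited reads, and it reversed to −0.520 for Htr2c alone and to −0.394 for Htr2c against the Htr2c-intron hairpins. The cause was not tested. The correlation with the list was 0.172 to 0.395 with each library left out, 0.041 without P90 3 days and 0.0912 without Ttr and Htr2c. At this depth Ttr and Mir1912 gave few reads per library.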

Other observations

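Epithelial miRNAs of the Mir200 and Mir182 families peaked in libraries with little miR-1298-5p, but they were also high in libraries with much of it. The summed level of this list was 883 CPM in SCI 3 of P15 3 days and 844 CPM in SHAM 3 of P90 12 h, against a median of 284 CPM over the 24 libraries. In these libraries miR-1298-5p was at 37.3 and 27.4 CPM. miR-200a-3p was at 282 CPM in SCI 3 of P15 3 days and at 35.4 to 83.2 CPM in the other 5 libraries of that comparison, and miR-182-5p was at 154 CPM there, against 10.9 to 34.3 CPM. In SCI 1 of P90 12 h, where miR-1298-5p was at 371 CPM, miR-200a-3p was at 48.4 CPM. At P90 3 days, in contrast, the list summed to 561, 277 and 599 CPM in SHAM, where miR-1298-5p was at 227, 24.9 and 245 CPM. There miR-200a-3p was at 134, 43.9 and 131 CPM in SHAM and at 20.9, 66.1 and 113 CPM in SCI. In these SCI libraries miR-1298-5p was at 14.7, 12.0 and 16.1 CPM. No arm of this list was called in any comparison. These arms were picked for description after their values were seen.

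Of the other marker lists, none had a called arm. The erythrocyte miRNAs summed to 236 to 539 CPM, highest in SHAM 1 of P15 3 days. The vessel and meninges list summed to 11655 to 20789.6 CPM, the oligodendrocyte list to 1886 to 8036 CPM and the immune cell list to 642 to 2368 CPM. Erythrocyte mRNAs were at 0.829 to 49.9 RPM, and oligodendrocyte mRNAs at 5.31 to 117.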
